A study of Mus musculus with 20 samples.

Results

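Toll-like receptors were described across 20 mouse livers as a family of 10 genes: Tlr1, Tlr2, Tlr3, Tlr4, Tlr5, Tlr6, Tlr7, Tlr8, Tlr9 and Tlr13. They were chosen by gene name, and all 10 were found among the 38924 genes of the deposited table. Poly(A) RNA of liver had been sequenced from 4 groups of 5 male C57/BL6 mice (C57BL/6J in the methods), and the labels number the mice within each group. NDWT mice were wild type on control diet, NDKO mice were TSP-1 null on control diet, HFWT mice were wild type on CDAHFD and HFKO mice were TSP-1 null on CDAHFD. CDAHFD is a high fat diet that lacks choline and supplies protein as amino acids, and it leads to a fatty, fibrotic liver. TSP-1 null mice carry a disrupted Thbs1 gene, which encodes thrombospondin-1, in every cell of the body. The mice were bought at 5 weeks of age, kept for 1 week and then fed for 12 weeks, and whether wild type and null animals were littermates is not given in the sources used here.

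Libraries held 15641545 to 23276322 fragments assigned to genes, and levels are FPKM, fragments scaled to gene length and library size, which allows receptors to be compared with each other. Thbs1 went against the labels on control diet, with 0.197 ± 0.103 FPKM in NDWT and 1.30 ± 0.39 in the mice labelled TSP-1 null (mean ± SD, n = 5 each), and it stood at 4.62 ± 1.22 in HFWT and 3.44 ± 0.547 in HFKO. These levels count the whole gene and do not separate the disrupted from the intact part. All genotype directions rest on the labels as given. HFWT replicate 5 stood apart from its group, with a chi-square per degree of freedom of 74.1 to 95.1 against the other HFWT libraries, which gave 16.4 to 40.4 among themselves. Hepatocyte markers were high in every library, with summed levels of Alb, Apoa1, Ttr, Cps1, Serpina1a and Tat between 25365 and 44858 FPKM.

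Toll-like receptors are membrane proteins of innate immunity that bind molecules of microbes or of damaged cells and signal through adaptors, chiefly Myd88, to NF-kB and interferon regulatory factors. Tlr2 pairs with Tlr1 or Tlr6 at the cell surface to bind bacterial lipoproteins, Tlr4 binds lipopolysaccharide and Tlr5 binds flagellin. Tlr3, Tlr7, Tlr8, Tlr9 and Tlr13 sit in endosomes and bind nucleic acids. In liver the receptors are known from Kupffer cells, infiltrating monocytes and dendritic cells, and several of them also from endothelium, stellate cells and hepatocytes. The response to gut bacteria that reach the liver through the portal vein is the setting in which they are most studied there.

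In the coordinates of the table (GRCm38) the surface receptors are Tlr1 at chr5:64924811-64932761, Tlr2 at chr3:83836273-83841767, Tlr4 at chr4:66827584-66930284, Tlr5 at chr1:182954788-182976044 and Tlr6 at chr5:64953106-64960048. The endosomal receptors are Tlr3 at chr8:45395665-45410608, Tlr7 at chrX:167304929-167330558, Tlr8 at chrX:167242696-167264329, Tlr9 at chr9:106222598-106226876 and Tlr13 at chrX:106143204-106160493. Tlr4, Tlr5, Tlr9 and Tlr13 are on the plus strand. Tlr1 and Tlr6 lie 20344 bases apart on chromosome 5, and Tlr7 and Tlr8 lie 40599 bases apart on the X chromosome, which also carries Tlr13. No gene of the table overlapped a member. Tlr1 and Tlr6 are close copies of each other: of the 3322 words of 31 bases in the Tlr1 transcripts, 21.8% recur in other genes, and 607 of them recur in Tlr6. For Tlr6 the share was 16.9%, for Tlr3 6.10% and for Tlr4 1.23%, and the other 6 members shared none. The single values of Tlr1 and Tlr6 are therefore less certain than those of the other members, since counting can split or drop reads of the shared stretches.

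The sequence around the start of transcription is shown for Tlr13, which rose most on CDAHFD, and for Tlr5, the member that fell. It is also shown for Tlr1 and Tlr9, which each had a window with the core motif of PU.1, the macrophage transcription factor encoded by Spi1. RefSeq (GRCm38.p6) gave a window of 250 bases before and 50 bases after the start for 8 of the 10 members, in 10 windows. Tlr1 and Tlr6 had a pair of windows each. The Tlr1 window that is not printed, chr5:64932650-64932949, held none of the motifs searched. The printed Tlr1 window lies beyond the end of the gene as counted, 64932761. The windows printed are chrX:106143025-106143324 on the plus strand for Tlr13, chr5:64933509-64933808 on the minus strand for Tlr1, chr9:106222348-106222647 on the plus strand for Tlr9 and chr1:182954538-182954837 on the plus strand for Tlr5. Each reads 5′ to 3′ along the gene, and capitals mark motif matches.
Tlr13: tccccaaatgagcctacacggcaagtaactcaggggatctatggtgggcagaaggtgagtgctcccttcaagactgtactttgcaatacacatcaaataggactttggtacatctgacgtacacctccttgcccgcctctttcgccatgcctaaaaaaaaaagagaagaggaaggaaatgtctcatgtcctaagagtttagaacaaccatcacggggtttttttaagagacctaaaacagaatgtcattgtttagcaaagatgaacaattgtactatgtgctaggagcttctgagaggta
Tlr1: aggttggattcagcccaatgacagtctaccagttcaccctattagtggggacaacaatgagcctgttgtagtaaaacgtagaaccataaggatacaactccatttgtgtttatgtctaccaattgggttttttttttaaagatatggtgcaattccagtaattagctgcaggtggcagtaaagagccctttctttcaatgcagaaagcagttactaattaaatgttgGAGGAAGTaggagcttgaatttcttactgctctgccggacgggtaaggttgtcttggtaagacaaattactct
Tlr9: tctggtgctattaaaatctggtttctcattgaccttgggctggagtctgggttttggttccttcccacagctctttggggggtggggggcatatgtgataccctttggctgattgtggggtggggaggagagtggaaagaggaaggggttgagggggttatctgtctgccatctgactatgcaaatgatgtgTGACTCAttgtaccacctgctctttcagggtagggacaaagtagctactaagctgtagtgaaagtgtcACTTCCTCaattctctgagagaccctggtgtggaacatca
Tlr5: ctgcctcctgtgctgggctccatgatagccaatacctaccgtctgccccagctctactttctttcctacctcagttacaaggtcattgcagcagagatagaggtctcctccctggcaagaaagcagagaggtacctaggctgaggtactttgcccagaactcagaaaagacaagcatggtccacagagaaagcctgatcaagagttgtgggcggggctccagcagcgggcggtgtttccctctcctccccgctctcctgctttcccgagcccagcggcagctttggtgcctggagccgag

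On both strands 4 motifs were searched. GAGGAAGT, the PU.1 core, stood in the printed Tlr1 window 23 bases before the start and, on the other strand, in the Tlr9 window 10 bases after it. It occurred in 3.20% of all 32851 windows. TGANTCA, the AP-1 motif, stood 58 bases before the start of Tlr9 and occurred in 7.81% of all windows. GAAANNGAA, an interferon response motif, occurred in 8.56% of all windows. It stood in the Tlr8 window 67 bases before the start and in a Tlr6 window as overlapping matches 115 and 109 bases before it. GGANTTTCC, the NF-kB core, occurred in 1.25% of all windows and stood 210 bases before the start of Tlr3. The Tlr13 and Tlr5 windows held none of these letters.

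Among the 10 members, Tlr5 was the highest on control diet. Its level in NDWT was 4.84 ± 0.94 FPKM (SD, n = 5), and no NDWT library had less than 3.57, while no other member exceeded 1.65 in any NDWT library. Tlr2 followed at 1.26 ± 0.26 and Tlr3 at 1.26 ± 0.27. The remaining receptors ran from Tlr4 at 0.53 ± 0.10 down to Tlr6 at 0.18 ± 0.04, and neighbours in that stretch of the order overlapped in their ranges. In NDWT only the steps from Tlr5 to Tlr2 and from Tlr3 to Tlr4 were wider than the ranges of the libraries. NDKO had the same 3 receptors on top, with Tlr5 at 3.43 ± 1.12, Tlr2 at 0.96 ± 0.22 and Tlr3 at 0.95 ± 0.12. The control diet levels of the lowest members rested on few fragments, 5 to 19 per library for Tlr6 and 6 to 31 for Tlr9, above the floor of 3 fragments but with wide counting error.

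On CDAHFD the order of the members was different. Tlr2 and Tlr13 had the highest means of the 10 in HFWT at 8.24 ± 1.06 and 7.27 ± 0.88 FPKM, with overlapping ranges. Tlr1 came next at 4.17 ± 0.52 and overlapped neither its upper nor its lower neighbour. Tlr8 (2.56 ± 0.28), Tlr3 (2.42 ± 0.51), Tlr9 (1.98 ± 0.80), Tlr7 (1.90 ± 0.38), Tlr5 (1.81 ± 0.48), Tlr4 (1.38 ± 0.25) and Tlr6 (1.13 ± 0.22) formed a run of overlapping neighbours. HFKO began with the same 3 receptors, at 6.60 ± 1.96 for Tlr2, 5.84 ± 1.56 for Tlr13 and 3.83 ± 1.93 for Tlr1. There no pair of neighbours in the order was separated by its ranges.

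**Figure D1:**
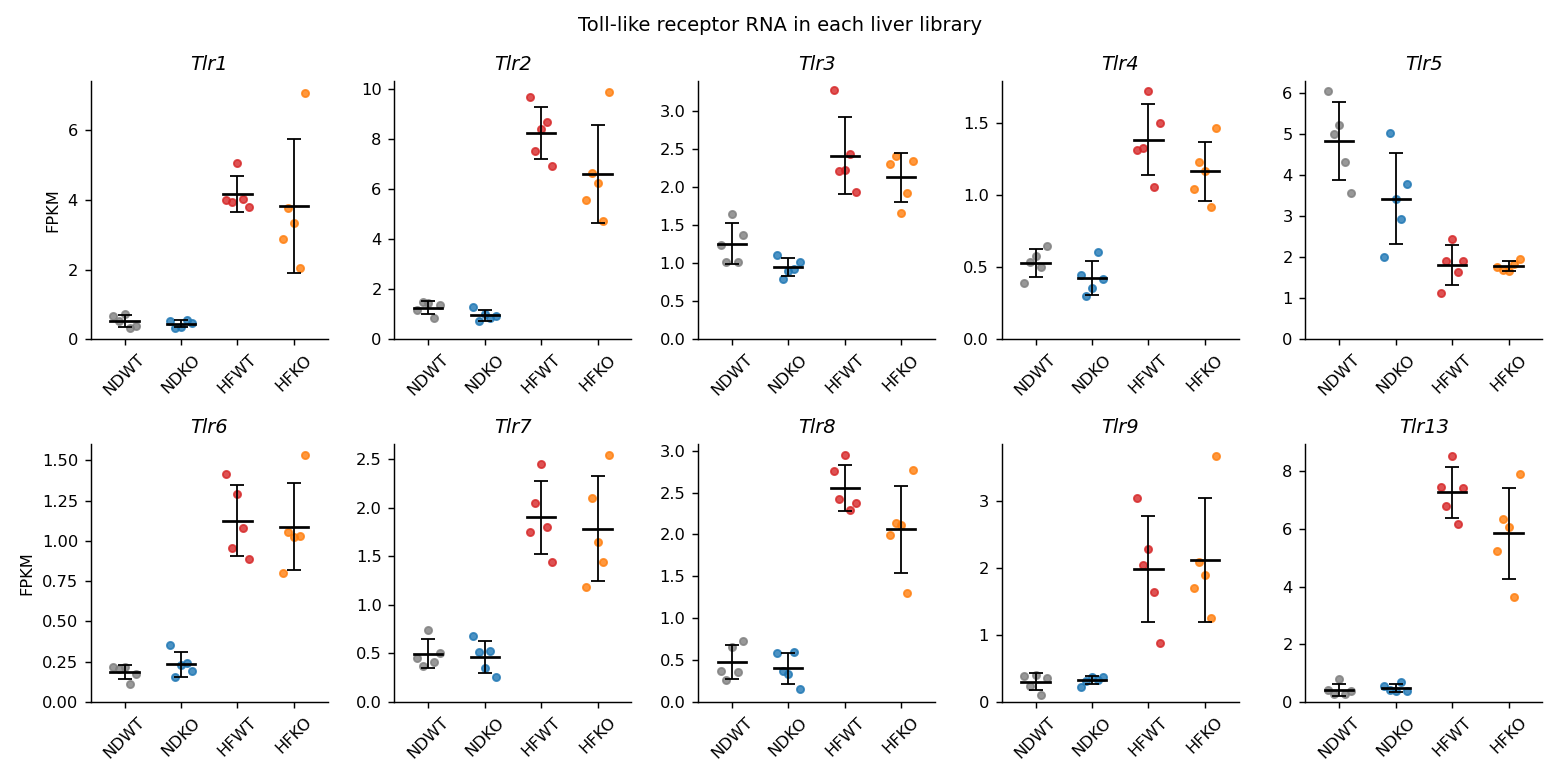
FPKM of each receptor (vertical axes, linear, from 0) in the 20 libraries by group. Points are libraries, the bar is the mean and whiskers are 1 SD. In 9 panels the points of HFWT and HFKO lie above those of NDWT and NDKO, and in the Tlr5 panel they lie below within each genotype.

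CDAHFD was compared with control diet within each genotype, the comparison that gives the response to the diet. Of the 10 members, 9 rose and Tlr5 fell, in WT and in TSP-1 null livers alike. A gene was called changed at a Benjamini-Hochberg false discovery rate (FDR) under 0.05 and an absolute log2 fold change (log2FC) above 0.58, in a limma fit of log2(FPKM + 0.1) over 14524 genes. Of all genes tested, 44.1% were called higher and 4.62% lower in WT, and 41.9% were called higher and 4.0% lower in TSP-1 null livers. The members' median log2FC, 2.19 for WT and 2.00 for the null mice, stood beside 0.53 and 0.50 over all genes. None of the 10 members overlapped between diets in either genotype, and 56.2% and 57.8% of all genes did not. Each p-value behind an FDR sets the change against the spread between mice of the same group, pooled over the 4 groups. In whole liver more cells of a type and more RNA per cell cannot be told apart.

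Tlr13, a mouse endosomal receptor for a stretch of bacterial ribosomal RNA, rose most. Its FPKM in NDWT replicates 1 to 5 was 0.41, 0.28, 0.78, 0.27 and 0.39, and in HFWT replicates 1 to 5 it was 7.44, 6.78, 8.54, 6.17 and 7.43. In the TSP-1 null mice it was 0.53, 0.42, 0.39, 0.69 and 0.38 on control diet and 5.24, 6.34, 6.07, 3.64 and 7.91 on CDAHFD. The lowest CDAHFD library was thus several times the highest control library. Its mean went from 0.427 ± 0.209 to 7.27 ± 0.881 FPKM in WT (log2FC 3.87, SE 0.22, limma FDR 1.71e-11). In TSP-1 null livers it went from 0.482 ± 0.131 to 5.84 ± 1.56, which is 12.1 times higher (log2FC 3.33, SE 0.22, FDR 1.60e-10). By log2FC Tlr13 ranked 132 of the 14524 genes tested in WT and 196 in TSP-1 null livers. The filter on low values asked for FPKM above 0.5 in at least 5 libraries. Only 1 NDWT and 2 NDKO libraries of Tlr13 exceeded 0.5, so it passed the filter only through its CDAHFD libraries.

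The lipoprotein receptors Tlr2, Tlr1 and Tlr6 all rose. Tlr2, the shared partner of both pairs, was at 1.17, 1.47, 1.44, 0.85 and 1.36 FPKM in NDWT replicates 1 to 5 and at 9.66, 7.52, 8.38, 8.69 and 6.93 in HFWT. In TSP-1 null mice Tlr2 was at 1.30, 0.73, 0.99, 0.83 and 0.94 on control diet and at 5.56, 6.64, 6.24, 4.72 and 9.86 on CDAHFD. No control library exceeded 1.47 FPKM and no CDAHFD library fell below 4.72. Mean Tlr2 was 6.54 times higher in WT (log2FC 2.63, SE 0.18, limma FDR 1.76e-10) and 6.89 times higher in TSP-1 null livers (log2FC 2.64, FDR 2.16e-10).

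Tlr1, the partner of Tlr2 for triacylated lipoproteins, was at 0.68, 0.52, 0.72, 0.33 and 0.38 FPKM in NDWT and at 4.00, 3.94, 5.08, 4.03 and 3.80 in HFWT. Its NDKO libraries were at 0.51, 0.33, 0.36, 0.57 and 0.47 and its HFKO libraries at 2.87, 3.79, 3.33, 2.06 and 7.08. HFKO replicate 5 held the highest Tlr1 of the series and HFKO replicate 4 the lowest on CDAHFD. The log2FC of Tlr1 was 2.81 (SE 0.25) in WT, and 2.74 in the null mice. Tlr6, the partner for diacylated lipoproteins, ranged from 0.11 to 0.22 FPKM in NDWT and from 0.89 to 1.41 in HFWT, with a log2FC of 2.10 in WT and of 1.84 in null livers. Tlr6 passed the filter on low values, FPKM above 0.5 in at least 5 libraries, only through its CDAHFD libraries. The same held for Tlr8, Tlr9 and Tlr13. With no filter each of these members was also called higher in both genotypes.

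Tlr4, the lipopolysaccharide receptor, rose less. It ranged from 0.39 to 0.65 FPKM in NDWT, 0.30 to 0.61 in NDKO, 1.06 to 1.72 in HFWT and 0.92 to 1.46 in HFKO. CDAHFD raised it by a log2FC of 1.23 in WT (SE 0.17, limma FDR 2.43e-06), and by 1.28 in null livers. Under quantile normalization, which forces all libraries to the same distribution, Tlr4 was not called in either genotype (log2FC 0.18 and 0.32).

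Among the receptors for nucleic acids, Tlr7, Tlr8 and Tlr9 rose in both genotypes. Tlr7, a receptor for single-stranded RNA, ranged from 0.37 to 0.74 FPKM in NDWT and from 1.45 to 2.45 in HFWT (log2FC 1.76 in WT, 1.74 in null livers). Tlr8, its neighbour on the X chromosome, ranged from 0.27 to 0.73 in NDWT and from 2.29 to 2.94 in HFWT (log2FC 2.27 and 2.15). Tlr9, the receptor for unmethylated CpG DNA, ranged from 0.10 to 0.41 in NDWT and from 0.88 to 3.04 in HFWT (log2FC 2.36 and 2.32). The lowest HFWT value of Tlr9 was in replicate 5, the library that stood apart. Tlr9, like Tlr6, was above 0.5 FPKM in none of the control libraries.

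Tlr3, the receptor for double-stranded RNA, rose least. It was at 1.24, 1.01, 1.65, 1.02 and 1.37 FPKM in NDWT and at 3.27, 2.21, 2.22, 2.44 and 1.94 in HFWT, and at 1.10, 0.79, 0.90, 0.93 and 1.01 in NDKO and 2.31, 2.41, 1.66, 1.92 and 2.34 in HFKO. The groups did not overlap, but the gap between the highest control and the lowest CDAHFD library was narrow in WT. The log2FC was 0.89 in WT (SE 0.15, limma FDR 2.74e-05), and in null livers it was 1.08. This rise depended on the scaling between libraries: relative to the median of all genes it was 0.36 in WT and 0.59 in null livers, under median of ratios scaling Tlr3 was not called in WT (log2FC 0.36, FDR 0.0341), and under quantile normalization it was at -0.02 in WT and 0.24 in null livers and called in neither.

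Tlr5, the flagellin receptor, moved the other way. It was at 6.06, 5.02, 5.23, 4.32 and 3.57 FPKM in NDWT and at 1.13, 1.91, 2.45, 1.63 and 1.92 in HFWT. In the TSP-1 null mice it was at 2.00, 5.04, 3.41, 2.93 and 3.79 on control diet and at 1.77, 1.70, 1.67, 1.84 and 1.97 on CDAHFD. The HFKO libraries lay close together, and their highest value was just under the lowest of NDKO, in replicate 1. In WT the mean on control diet was 2.68 times that on CDAHFD (log2FC -1.39, SE 0.20, limma FDR 4.85e-06), and in TSP-1 null livers 1.92 times (log2FC -0.85, SE 0.20, FDR 9.94e-04). Relative to the median of all genes the log2FC was -1.92 and -1.34, and Tlr5 was called lower under every alternative run in both genotypes.

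**Figure D2:**
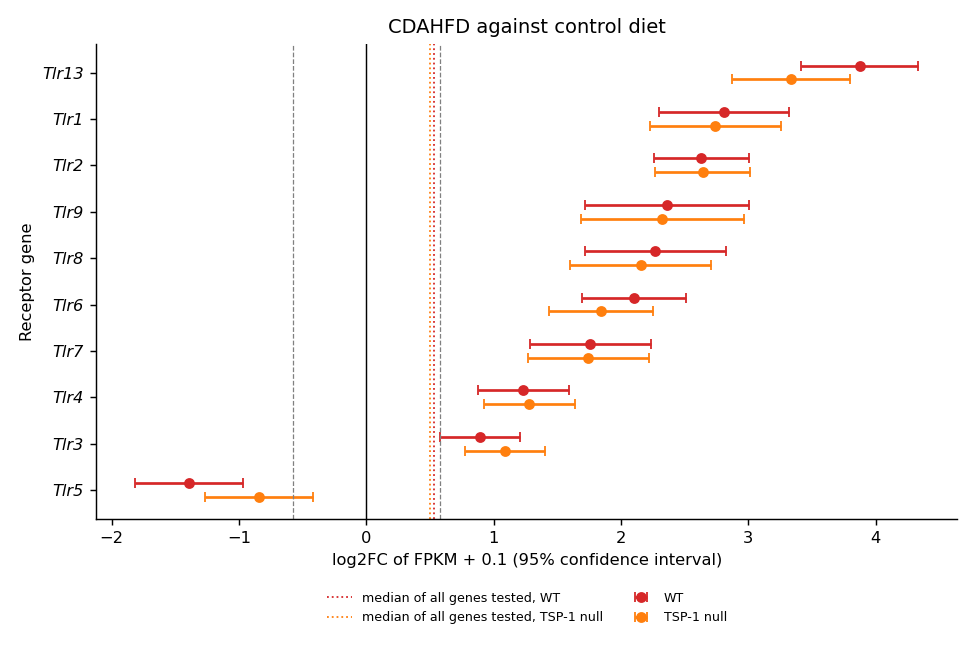
log2FC of the 10 receptors on CDAHFD against control diet (horizontal axis, with 95% confidence intervals; dashed lines at 0.58 either way, dotted lines at the median of all genes tested) in WT and TSP-1 null livers. Filled points were called, which all 20 were. Tlr13 lies farthest right and Tlr5 alone lies left of 0.

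Leaving out HFWT replicate 5 kept 9 members higher and 1 lower in WT, with a median log2FC of 2.24. HFKO replicate 5 held the highest HFKO level of 9 of the 10 members, Tlr3 being the exception, and the calls in TSP-1 null livers were the same without it. Other scalings lowered all values together. The median over all genes went from 0.53 to -0.01 in WT under median of ratios scaling and to -0.09 under quantile normalization. Of all genes called in WT, 6412 rose and 671 fell as deposited, 3299 rose and 2242 fell under median of ratios scaling and 2514 rose and 2562 fell under quantile normalization. Among the members, 8 rose and 1 fell in WT under median of ratios scaling and 7 rose and 1 fell under quantile normalization. For TSP-1 null livers the splits over all genes were 6088 and 581, 3225 and 1980, and 2421 and 2186, and those of the members 9 and 1, 9 and 1, and 7 and 1. Tlr13, Tlr1, Tlr2, Tlr6, Tlr7, Tlr8 and Tlr9 were called higher, and Tlr5 lower, under each scaling in both genotypes.

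TSP-1 null was compared with WT on each diet, the comparison that gives the effect of the genotype. By limma 0 of the 10 members were called on control diet, where 4.77% of all genes were, and 0 on CDAHFD, where 0.496% were. At an unadjusted p under 0.05 the fit had 2 members on control diet, Tlr3 and Tlr5, and 0 on CDAHFD, where 3964 and 2499 of all 14524 genes had such a p. A second method, voom on recovered fragments, also called 0 on either diet. The groups of every member overlapped between genotypes on both diets, whereas 9.03% of all genes on control diet and 4.98% on CDAHFD did not overlap. Most members were slightly lower in null livers, 7 of 10 on control diet and 8 of 10 on CDAHFD, with medians of -0.19 and -0.20 beside -0.07 and -0.10 over all genes. The members' medians were -0.13 on control diet and -0.10 on CDAHFD under median of ratios scaling, and -0.13 and -0.05 under quantile normalization, where 6 of 10 were lower on CDAHFD. Over all genes called on control diet 253 were higher and 440 lower in null livers, a split that became 348 and 329 under median of ratios scaling and 246 and 236 under quantile normalization. On CDAHFD the split was 24 and 48, and it became 38 and 27 or 65 and 39.

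Tlr5 on control diet came closest to a call. Its log2FC was -0.52 (SE 0.20, 95% confidence interval -0.95 to -0.10, limma FDR 0.0978). NDKO replicate 2 held 5.04 FPKM, within the NDWT range, and without it the log2FC was -0.67 (FDR 0.0300) and Tlr5 was called, while over the other alternatives FDR ran up to 0.267. On CDAHFD its log2FC was 0.02 (95% confidence interval -0.40 to 0.45). Tlr3 on control diet had a log2FC of -0.36 (-0.68 to -0.05, FDR 0.122) and Tlr2 had -0.36 (-0.73 to 0.02, FDR 0.203). The confidence intervals of several members reached past 0.58 in size, to -0.88 for Tlr8 and -0.81 for Tlr13 on CDAHFD and to 0.78 for Tlr9 on control diet. A genotype difference of the size of the threshold could therefore not be told from none in these members.

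**Figure D3:**
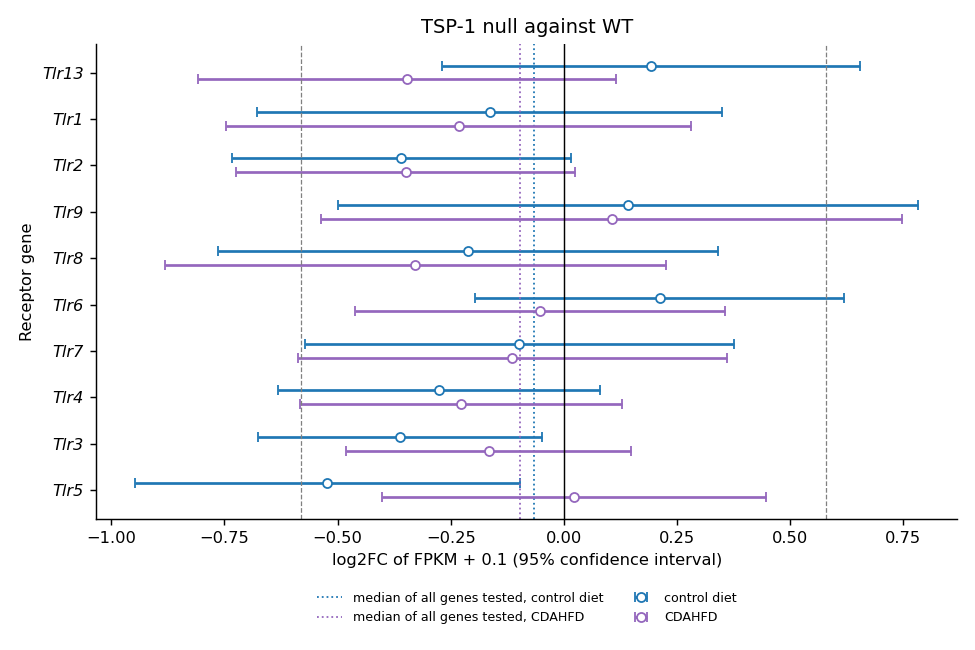
log2FC of TSP-1 null against WT on control diet and on CDAHFD for each receptor (horizontal axis, with 95% confidence intervals; dashed lines at 0.58 either way, dotted lines at the median of all genes tested). All points are open, since none was called. The Tlr5 interval on control diet, from -0.95 to -0.10, reaches farthest below 0.

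Whether the response to CDAHFD differed between genotypes was tested as the interaction, the log2FC in TSP-1 null livers less that in WT. By limma 0 members were called, against 0.647% of all genes, and 0 had an unadjusted p under 0.05 or were called by voom. The widest differences were those of Tlr5 (0.54, 95% confidence interval -0.06 to 1.14, FDR 0.385) and Tlr13 (-0.54, -1.19 to 0.11, FDR 0.441). Both correspond to a weaker diet effect in null livers, but their intervals include 0. For Tlr2 the difference was 0.01, with an interval of -0.52 to 0.54.

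Markers of blood-derived and resident cells moved with the diet beside the receptors. Over all genes tested 44.1% were called higher and 4.62% lower in WT, and 41.9% and 4.0% in null livers. The marker counts are to be read against these shares. Ccr2, Itgam, Chil3, Flt3, Xcr1, Cd209a, Siglech, Ms4a1, Cd8a and Krt7 were under 0.5 FPKM in every control library. They passed the filter only through CDAHFD libraries. The same held, among others, for Itgax, at 0.144 to 0.625 FPKM in NDWT and at most 0.413 in NDKO. It also held for Cd3d (at most 0.422 in NDWT, 0.11 to 0.567 in NDKO) and Krt19 (0.194 to 0.533 in NDWT, at most 0.453 in NDKO). The filter thus partly set how many markers rose. The general macrophage genes Adgre1, Csf1r, Cd68, Fcgr1 and Mertk were called higher in both genotypes, 5 of 5, and their summed level was 42.3 to 60.3 FPKM in NDWT, 38.2 to 58.4 in NDKO, 144 to 207 in HFWT and 111 to 265 in HFKO. All 4 monocyte markers rose in both genotypes, from a sum of 1.55 to 1.81 FPKM in NDWT to 15.3 to 21.1 in HFWT. Of the dendritic cell markers 5 of 6 rose in both genotypes (2.12 to 2.95 in NDWT and 26.1 to 35.3 in HFWT). Their HFWT sum was mostly Itgax, at a mean of 25.1 FPKM there and 0.43 in NDWT. Of the 5 neutrophil markers the 3 tested rose (1.11 to 5.02 and 18.8 to 33.5). Ly6g, which was not tested, was at 0 in every NDWT and HFWT library. B cell markers rose in 4 of 5 and T cell markers in 4 of 5, at summed levels up to 8.42 and 11.1 FPKM in HFWT. Plasmacytoid dendritic cell markers rose in 2 of 4 in WT and 3 of 4 in null livers, and their sum was mostly Bst2. Kupffer cell markers did not follow: 0 rose and 2 of 5 fell in WT, and 1 rose and 2 fell in null livers, with sums of 149 to 200 in NDWT and 104 to 228 in HFWT. Of the hepatocyte markers 0 rose and 2 of 6 fell in each genotype. Sinusoidal endothelial markers rose in 1 of 5 in WT and 2 of 5 in null livers, stellate cell markers in 5 of 5 and cholangiocyte markers in 4 of 5 in both. No marker of these lists was at 0 in every library of a diet, and the part of these cells in the receptor levels was not tested.

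To set the receptors against macrophage RNA in the same library, each log2(FPKM + 0.1) was taken less the mean log2 level of the 5 general macrophage genes, which rose by 1.63 in WT and 1.66 in TSP-1 null livers. Tlr13, Tlr1 and Tlr2 rose beyond this mean in both genotypes, and Tlr5 and Tlr3 fell below it. The macrophage genes rose unequally, by a log2FC from 0.89 for Mertk to 2.98 for Cd68 in WT. In null livers the range was 1.10 to 2.83 for the same genes. Cd68 thus rose more than Tlr1 and Tlr2 in both genotypes. Tlr13 gained 2.25 in WT and 1.68 in null livers, Tlr1 gained 1.18 and 1.08, and Tlr2 gained 1.00 and 0.98 on the log2 scale. For Tlr5 the differences were -3.02 and -2.50 and for Tlr3 -0.74 and -0.57. Each of these 10 had the smallest p that 5 against 5 libraries allow in a two-sided exact permutation test, 0.00794, and 0.0144 after Benjamini-Hochberg adjustment over 20 tests.

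None of the other members passed in both genotypes, though the differences of Tlr9 were about as large in size as those of Tlr3. Tlr8 (0.64) and Tlr6 (0.47) passed as higher in WT (exact permutation, adjusted p 0.0244 each), but not in null livers (0.50 and 0.18). Tlr9 passed in null livers (0.67, adjusted p 0.0144 by the exact test) and not in WT (0.73, adjusted p 0.0595). Tlr4 was at -0.40 in WT and at -0.38 in null livers, where it passed narrowly (exact permutation, adjusted p 0.0454), and Tlr7 was at 0.13 and 0.08 and passed in neither. Single libraries decided some of these calls. Without HFWT replicate 5, Tlr9 (0.90) and Tlr4 (-0.50) passed in WT. Without NDKO replicate 4 or HFKO replicate 5, Tlr8 passed in null livers (0.60 and 0.57). Tlr4 in null livers no longer passed without NDKO replicate 2, 4 or 5 or HFKO replicate 1, 2, 3 or 5 (-0.41 to -0.27). The genotypes were not compared with each other on this measure.

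The pseudocount weighs on low receptors more than on the abundant macrophage genes, and it set the sign for some members. With a pseudocount of 1, Tlr6 was at -0.68 in WT and -0.77 in null livers, Tlr7 at -0.56 and -0.62, Tlr9 at -0.36 and -0.33 and Tlr8 at -0.24 and -0.41, all on the other side of 0. Of these 8 values 7 passed as lower, the exception being Tlr8 in WT, so that Tlr6 in WT and Tlr9 in null livers went from passing as higher to passing as lower (exact permutation, adjusted p 0.0106 and 0.0373). Tlr4 in WT also passed as lower (-0.88). With 0.01 these values were positive, and Tlr9 in WT (1.08) and Tlr6 and Tlr8 in null livers (0.53 and 0.75) passed as higher. Tlr1 stayed positive with a pseudocount of 1 (0.25 and 0.13) but no longer passed. Against Csf1r alone or Adgre1 alone, Tlr3 no longer passed in null livers (-0.21 and -0.49), while Tlr7 (0.39 and 0.44) and Tlr9 (0.99 and 1.04) passed in WT. Tlr13 and Tlr2 as higher, and Tlr5 as lower, passed in both genotypes under every pseudocount, both single-gene references and without any single library. Cd68, the macrophage gene that rose most, was not run as a reference alone.

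**Figure D4:**
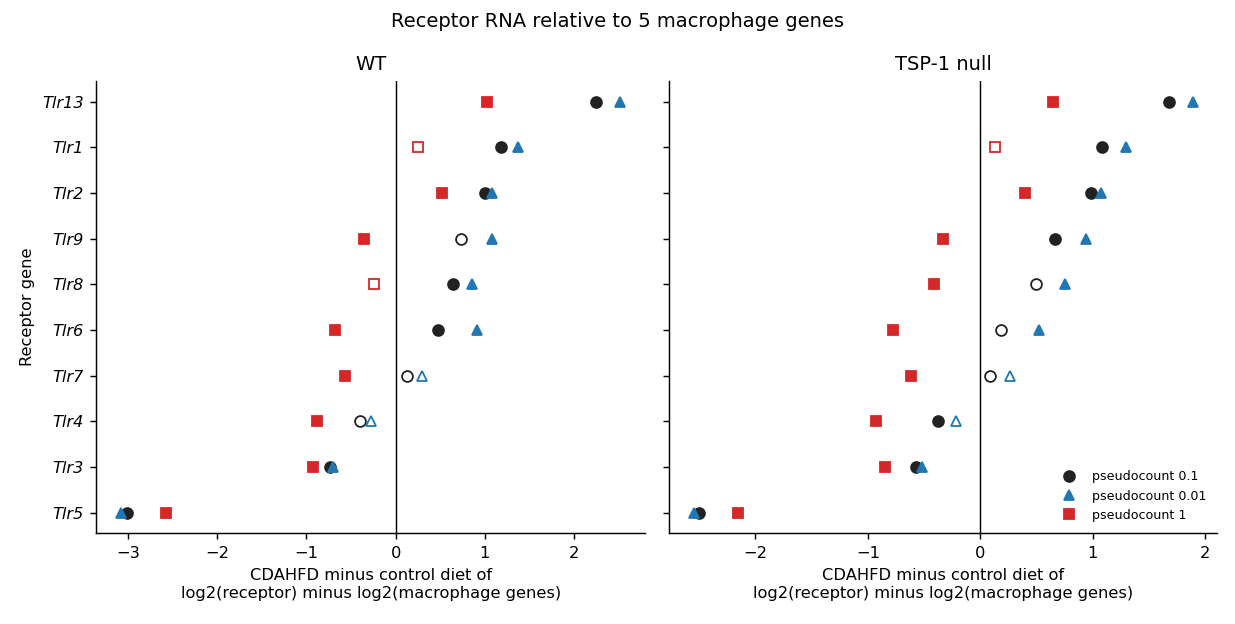
Change from control diet to CDAHFD in log2 receptor level less the mean log2 level of 5 macrophage genes (horizontal axis), for WT and TSP-1 null livers and 3 pseudocounts. Filled symbols passed the exact permutation test after adjustment. Tlr13 and Tlr2 lie right of 0 and Tlr5 and Tlr3 left of 0 with every pseudocount, while Tlr6, Tlr7, Tlr8 and Tlr9 change sides with a pseudocount of 1.

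Libraries of the same group also differed in receptor RNA. After each group's mean was taken off, Tlr2 tracked the macrophage reference most closely over the 20 libraries (Pearson r 0.89), followed by Tlr1 (0.80), Tlr6 (0.79), Tlr7 (0.70), Tlr13 (0.68), Tlr9 (0.64), Tlr8 (0.64), Tlr4 (0.60) and Tlr3 (0.44), with Tlr5 at -0.25. HFKO replicate 5, with the highest levels of 9 members in its group, also had the highest reference of all libraries, 5.25 on the log2 scale, and HFKO replicate 4 the lowest on CDAHFD, 4.02. Between members the highest values were 0.83 for Tlr2 with Tlr6 and 0.77 for Tlr8 with Tlr13, Tlr7 with Tlr8 and Tlr1 with Tlr13. Tlr5 ranged from -0.44 to 0.12 with the other members. The values being correlated share their library, so its depth and cell content enter both sides.

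Several of the genes most like the receptors by this measure are leukocyte genes. Tlr1 was nearest to Kcnab2 (0.95) and Csf2rb (0.90), Tlr2 to Themis2 (0.93) and Hcls1 (0.91), and Tlr6 to Nub1 (0.89) and Themis2 (0.88). Tlr4 was nearest to Cd53 (0.91) and Clec7a (0.87), Tlr7 to P2ry13 (0.85) and Fcgr4 (0.83), Tlr8 to Sirpb1b (0.85) and Gm20632 (0.84), Tlr9 to Wnk1 (0.88) and Cap1 (0.88), and Tlr13 to Cd44 (0.88) and Plek (0.87). Themis2, Hcls1 and Plek encode signalling proteins of leukocytes, and Cd53, Clec7a, Csf2rb and Fcgr4 encode their surface proteins. Tlr3 was nearest to Ccdc134 (0.88) and Lrp11 (0.85), and Tlr5 to Gpd2 (0.83), a mitochondrial glycerol phosphate dehydrogenase, and Cept1 (0.83), an enzyme of phospholipid synthesis.

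Of 73 other genes of the receptor pathway, 65 passed the filter. In WT 42 rose and 2 fell, and in TSP-1 null livers 42 rose and 0 fell, with median log2FC of 1.09 and 1.30. Over all genes 44.1% and 41.9% were called higher, the shares against which this count and those of the groups that follow are to be read. Under median of ratios scaling 31 rose and 4 fell in WT and 34 rose and 4 fell in null livers. The 2 that fell in WT were Hsp90b1 (log2FC -0.65) and Tlr12 (-0.79).

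Co-receptors rose with the receptors. Of 6 genes 5 rose in each genotype, with Cd14, which hands lipopolysaccharide to Tlr4, going from 1.97 ± 0.24 to 25.5 ± 3.71 FPKM in WT (log2FC 3.62) and the Tlr4-like pair Cd180 and Ly86 by 2.56 and 2.06. Rftn1, which aids uptake of Tlr3 and Tlr4 ligands, rose by 2.77. Ly96, the Tlr4 co-receptor MD-2, rose by 0.77. Lbp, the hepatocyte-made lipopolysaccharide binding protein of plasma, was at -0.16 in WT and -0.19 in null livers and was not called.

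Of the 10 genes of endosomal handling, 7 rose and 1 fell in WT and 6 rose in null livers. The proteases Ctss (log2FC 3.53 in WT), Ctsb (1.48) and Lgmn (1.74), which cleave endosomal receptors, rose, as did the nuclease Pld3 (2.45). Unc93b1, the chaperone that carries endosomal receptors to their place, rose by 1.72 in WT and 1.63 in null livers. Hsp90b1 (gp96), the chaperone that folds toll-like receptors in the endoplasmic reticulum, was the gene that fell.

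Of 5 adaptors 3 passed the filter and 0 were called by limma in either genotype. Myd88, the main adaptor, was at a log2FC of 0.06 in WT and 0.10 in null livers, Tirap at 0.53 and 0.40 and Ticam1 at 0.31 in both. Tirap (limma FDR 4.08e-05 in WT) and Ticam1 (FDR 0.0439) passed the FDR in both genotypes and missed the fold threshold. Ticam2, which did not pass the filter, had a mean of 0.111 FPKM in NDWT and 0.498 in HFWT. All 3 lay below the median of all genes in both genotypes. Of the 15 kinases and ligases that pass the signal on, 5 rose in each genotype, led by Ikbke (2.14 in WT), Tab1 (1.58), Traf3 (1.29) and Ikbkb (1.09). Unc93b1, Myd88, Tirap, Ticam1, Ticam2, Ly96 and Lbp were named after their values were seen.

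Transcription factors and inhibitors rose in like numbers. Of 9 transcription factors 7 rose in each genotype, among them Spi1 (2.51 in WT), Irf8 (2.40), Irf5 (2.37) and Nfkb2 (2.26). Of 10 inhibitors 7 rose in each genotype, among them Tnfaip3 (2.89), a ubiquitin-editing brake on NF-kB, Irak3 (2.48), the kinase-like inhibitor of Myd88 signalling, Zc3h12a (1.94), which degrades cytokine transcripts, and Nfkbiz (1.55). Irak3 did not exceed 0.491 FPKM in NDWT and ranged from 0.16 to 0.527 in NDKO. It passed the filter only through its CDAHFD libraries, which bears on its place in this count.

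Of the 16 response genes 12 passed the filter, and 11 rose in WT and 12 in null livers. The chemokines Ccl3 (3.67), Cxcl2 (3.41) and Ccl4 (3.25) and the cytokine Tnf (2.74) rose in WT. Tnf, Il12b, Cxcl2, Ccl4, Cd40 and Cd80 were under 0.5 FPKM in every control library, and Ccl3 in every NDWT library. These genes passed the filter only through CDAHFD libraries, so the filter partly set how many response genes rose. Il6, Il12a, Ifnb1 and Ptgs2 did not pass the filter, and Ifnb1 was listed at 0 in every library.

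**Figure D5:**
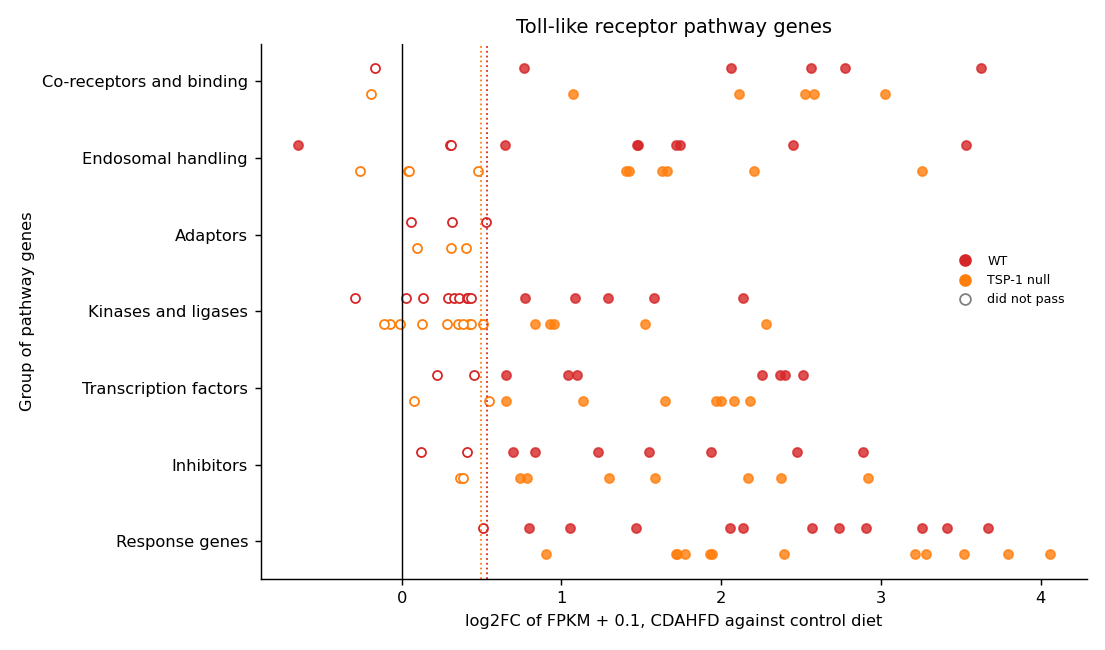
log2FC on CDAHFD against control diet (horizontal axis) of the pathway genes tested except Tlr12, which is not drawn, by group, in WT and TSP-1 null livers. Points are genes, filled where called, and dotted lines mark the median of all genes tested. The 3 adaptors are open in both genotypes, while most response genes and transcription factors are filled and right of 0.5.

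Between genotypes, 5 of the 65 pathway genes were called on control diet, 1 higher and 4 lower in TSP-1 null livers, and 0 on CDAHFD, beside 4.77% and 0.496% of all genes. Cxcl10, an interferon-induced chemokine, was at 3.28 ± 0.96 FPKM in NDWT and 1.18 ± 0.42 in NDKO (log2FC -1.42, limma FDR 0.00109). Il1b, encoding a cytokine of activated myeloid cells, was at 1.79 ± 0.625 and 0.715 ± 0.404 (log2FC -1.28, FDR 0.00992). Rel, an NF-kB subunit, was at 0.987 ± 0.151 and 0.565 ± 0.148 (log2FC -0.73), and Hsp90b1 was at 184 ± 60.6 and 107 ± 16.7 (log2FC -0.74). Hsp90b1 lost its call without NDWT replicate 3 (log2FC -0.57), and Rel lost its call with a pseudocount of 1 (-0.35). Tab1, a partner of the kinase Map3k7, was higher in null livers (log2FC 0.58) and lost its call with a pseudocount of 1 (0.37) and without any of 5 single libraries, NDWT replicates 4 and 5 and NDKO replicates 1, 3 and 4. Tab1 also lost its call with only the groups compared, where its limma FDR was 0.0562. Without 1 library the count ran from 0 to 2 higher and from 3 to 5 lower.

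The mouse has 2 further toll-like receptors with a row in the table. Tlr11 stayed under 0.65 FPKM in every library and was not tested. Tlr12 was high and uneven on control diet, with NDWT libraries between 6.80 and 22.9 FPKM, NDKO between 6.75 and 13.7, HFWT between 7.47 and 10.8 and HFKO between 7.11 and 13.4. It was called lower in WT (log2FC -0.79, limma FDR 0.0129) and was at 0.02 in null livers, with groups that overlapped in both, and its interaction was not called (0.81, FDR 0.318).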

How the data were processed

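The authors sequenced poly(A) RNA of liver (directional NEBNext kit, Illumina HiSeq), aligned reads with STAR 2.5.2 and counted them with featureCounts of Subread 1.5.1, per the submitters' processing notes, and deposited FPKM values per gene. The strand setting of the counting is not given in the sources used here. The build in the notes is not a mouse build, whereas the gene coordinates match GRCm38. Each sample was grouped by its labels.

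From the deposited FPKM values, log2(FPKM + 0.1) was fitted with limma 3.58.1 (R 4.3.3, 4 group means, empirical Bayes with trend) over 14524 genes, those that exceeded an FPKM of 0.5 in 5 or more of the 20 libraries, and p-values were adjusted over all of them. Fragment numbers were recovered from FPKM, gene length and library total and used for depth, floors and voom. Intervals are 95% confidence intervals. Levels relative to macrophage genes were compared by two-sided exact permutation tests over 252 arrangements. The fit was tested on simulated data with as many genes raised as lowered. In the diet comparisons most called genes rose, so that test says nothing about the scaling between libraries. Python 3.11.15, scipy 1.17.1 and matplotlib 3.10.9 were used otherwise. Alternatives were pseudocounts of 0.01 and 1, no filter, FPKM above 1, other scalings, only the groups compared, a replicate block, voom, no fold change threshold and leaving out each library. A filter on mean FPKM above 0.5 and the rescaled pathway counts were added after seeing the data.

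The members, gene lists and marker lists were chosen with earlier results of these data known. All members were named, the pathway genes named were the 4 with the lowest FDR in WT per list and those called between genotypes, and the like genes were the 2 with the highest correlation per member. The labels give the lobe differently from the methods, and no lobe is stated here.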

Additional observations from a re-analysis of the deposited data

Results flagged for a closer look

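Of the 40 sets of 5 libraries that the 10 receptors and 4 groups make, 2 held a library far from the others by Dixon's criterion, whose critical value for 5 values is 0.71 and which chance passes in about 1 of 20 sets. Tlr1 was at 5.08 FPKM in HFWT replicate 3, where the other HFWT libraries lay between 3.80 and 4.03. Tlr13 was at 0.784 FPKM in NDWT replicate 3, where the other NDWT libraries lay between 0.271 and 0.41. Both receptors were called higher on CDAHFD in WT without the library concerned.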

How the results depend on the processing

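All 10 receptors were called in both diet comparisons under every alternative except the other scalings. Median of ratios scaling ended the call of Tlr3 in WT (log2FC 0.36). Quantile normalization ended those of Tlr3 (-0.022 in WT, 0.24 in null livers) and Tlr4 (0.18 and 0.32), and so turned the direction of Tlr3 in WT. Between genotypes on control diet the number of receptors called without 1 library ran from 0 to 1, and the call was that of Tlr5 without NDKO replicate 2. On CDAHFD the Tlr5 difference, 0.02, ran from -0.13 to 0.14 without 1 library and was below 0 without HFWT replicate 1, HFWT replicate 4 or HFKO replicate 5, with FDR far from the threshold. A replicate block, which pairs same-numbered libraries, left 10 receptors called in each diet comparison and 0 between genotypes, with FDR 0.101 for Tlr5 on control diet. Correlations of same-numbered libraries ran from -0.13 to 0.08. Between genotypes on control diet the same-numbered library was the best match of NDWT replicates 2, 4 and 5, at 0.04 to 0.08. Whether same-numbered libraries shared handling was not tested. Over all genes, 693 were called between genotypes on control diet, 393 with a pseudocount of 1 and 1899 with no fold change threshold. On CDAHFD 72 were called, 127 without a filter, 132 by voom, 40 with only the groups compared, 163 with no fold change threshold and 38 without HFKO replicate 4. For the interaction 94 were called, 54 without a filter and from 36 without NDKO replicate 4 to 184 without NDKO replicate 2. The causes were not tested. Depth limits Tlr6 and Tlr9 on control diet, where 5 to 19 and 6 to 31 fragments stood behind each value.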
